A study of Arabidopsis thaliana with 18 samples.

Results

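The shade response of sav3-2, an Arabidopsis thaliana mutant of the auxin synthesis gene SAV3, also known as TAA1, is described from 6 of the 18 Affymetrix arrays made in the study. The 6 arrays were chosen by their labels: 3 from sav3-2 seedlings after 1 h of low R:FR, a light rich in far-red relative to red that simulates shade (SH), and 3 from sav3-2 seedlings kept in simulated continuous white light (Wc). RNA came from whole seedlings aged 7 days of a Col-0 background, grown at 22 °C under 13 µmol m-2 s-1 of red and 1.23 of blue light, and for SH far-red light was added to 20.2, in the same unit, which gave an R:FR of 0.7. The other 12 arrays hold the same light conditions, with 3 arrays each, in the mutant sav1-1 and in the wild type Col-0, and they enter here as estimates of the spread and where a response is set beside that of sav3-2. The labels describe the 3 arrays of a group as independent biological replicates. The study set out to learn why the genotypes respond differently to shade.

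Plants sense neighbours through phytochromes, photoreceptors that far-red light returns to their inactive form. Phytochrome inactivation releases PIF transcription factors, which switch on growth genes and genes of auxin synthesis. TAA1 makes indole-3-pyruvate from tryptophan, and flavin monooxygenases of the YUCCA family turn it into auxin. Auxin in turn raises transcripts of Aux/IAA repressors, of GH3 enzymes that conjugate auxin to amino acids, and of cell wall genes.

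A probe set is a group of oligonucleotides on the array that reports 1 transcript, and levels are given as log2(value + 16) of the quantile normalized intensity, a scale that starts at 4. Fold changes given here are taken on this scale, with 16 added to each value, which understates them for dim genes. Before normalization the median intensities of the sav3-2 arrays lay between 34.4 and 65.6, which was also the range over all 18 arrays. Arrays of a group correlated with r between 0.973 and 0.987. Principal components 1 to 3 carried 19.8%, 12.3% and 9.85% of the variance, and component 2 set the arrays numbered 3 apart in each group. LHCB4.1, an antenna protein of green tissue, read 12.95 ± 0.03 in sav3-2 SH and 12.91 ± 0.07 in sav3-2 Wc (SD, n = 3), and EXPA7, a root hair expansin, read 5.52 ± 0.08 and 5.43 ± 0.13 in the same order. Each is the only measured gene of its list (14 green tissue and 15 root genes), a gene being measured if a kept probe set names it and no other gene. No seed storage or flower marker was measured in this sense. TAA1 was not analysed here, since no probe set used here names it, so the arrays do not check the genotype label.

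Low R:FR for 1 h still changed a set of genes in sav3-2, and most of them rose. Of 17125 probe sets tested, 108 were higher and 30 lower in SH than in Wc (limma, Benjamini-Hochberg adjusted p under 0.05), or 0.631% and 0.175% of those tested, together 138 or 0.806%. In all, 54 of the higher and 2 of the lower probe sets changed at least 2-fold, and 14 of the higher at least 4-fold. The median difference was 1.00 over the higher and -0.62 over the lower probe sets on the log2 scale, against -0.008 over all tested. For all 138 the SH and the Wc arrays did not overlap, which was so for 12.8% of all probe sets. The main fit holds no replicate block. Deviations of same-numbered sav3-2 arrays from their group means correlated at 0.105, 0.126 and 0.248. Those of differently numbered arrays lay between -0.169 and 0.0678, so the pairs numbered 1 and 2 stood only a little above the highest of these. With the replicate block 196 probe sets were higher and 81 lower, 277 in all or 1.62% of those tested, among them all of the 138. The total was 67 without sav3-2 SH replicate 1, 74 without SH replicate 2 and 91 without Wc replicate 2. In RNA from whole seedlings, fewer cells of a type and less RNA per cell cannot be told apart.

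The median difference over the 108 higher probe sets was 1.09, 1.02 and 0.88 between the SH and Wc arrays numbered 1, 2 and 3, and over the 30 lower it was -0.68, -0.62 and -0.60. These values describe probe sets that were called on the same arrays. Single genes differed by pair, as for IAA29, where the differences were 3.05, 3.06 and 2.11. Probe sets that rose had a median white light level of 6.56 and those that fell one of 7.55, against 6.72 over all tested. Among the 138, 47 of the higher and 12 of the lower name 1 gene, and the other 79 do not, among them the probe sets with the largest changes. Probe set 264323_at read 7.94, 8.02 and 7.48 in SH, against 4.09, 4.34 and 4.12 in Wc, and 245276_at read 10.12, 10.02 and 9.44, against 6.32, 6.14 and 6.36. The genes named below are therefore only part of what responded.

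**Figure D1:**
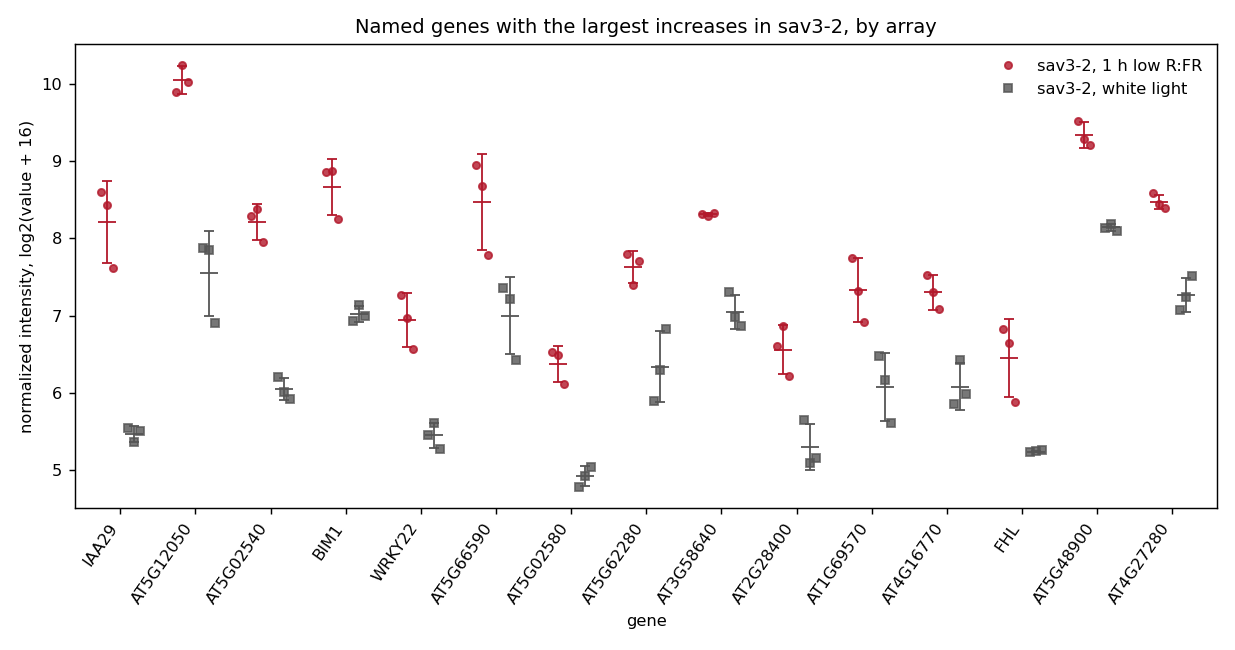
Normalized intensity on the log2(value + 16) scale of the 15 named genes with the largest rise, in the 3 sav3-2 arrays after 1 h of low R:FR and the 3 kept in white light. Points are arrays and lines are group means. In each gene all low R:FR arrays lie above all white light arrays, with IAA29 showing the largest difference (2.74).

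Among genes of auxin signalling, IAA29 (AT4G32280), an Aux/IAA repressor of auxin responses, had the largest rise of all named genes. It read 8.60, 8.43 and 7.61 in sav3-2 SH, against 5.55, 5.36 and 5.50 in Wc. The rise was 2.74 (SE 0.35, limma adjusted p = 7.32e-05), or 6.68-fold, and the SH array numbered 3 was the lowest of its group. The other measured Aux/IAA genes did not pass. Of the 7 Aux/IAA genes found by name 4 were measured, so the rest of the family was not examined. IAA30 stood at 0.40 (SE 0.16, limma adjusted p = 0.466), IAA18 at -0.04 and IAA34 at -0.10, and the median of the 4 was 0.18.

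Of the 5 measured GH3 genes, WES1 was called and GH3.3 was not. WES1, also known as GH3.5, read 8.17, 8.13 and 8.18 in SH, against 7.72, 7.54 and 7.44 in Wc, a rise of 0.59 (SE 0.14, limma adjusted p = 0.0394). The WES1 arrays did not overlap, and the limma adjusted p with the replicate block was 0.00251. Without the block, the call was lost in 5 of the 6 leave-one-out fits, with differences of 0.53 to 0.67. Each of the 6 fits, here and below, leaves out 1 sav3-2 array and holds no replicate block. The WES1 call held only without Wc replicate 1. GH3.3 (AT2G23170) read 6.93, 6.47 and 6.54 in SH, against 6.30, 6.52 and 6.24 in Wc, and these arrays overlapped. Its difference of 0.29 (SE 0.14) did not pass (limma adjusted p = 0.604), nor did it with the replicate block (adjusted p = 0.315). GH3.17 stood at 0.29, GH3.9 at -0.21 and GH3.1 at -0.37, and the median of the 5 was 0.29.

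YUC2 (AT4G13260), which encodes a flavin monooxygenase that acts on the product of TAA1, rose in the mutant. It read 7.04, 6.89 and 6.80 in SH, against 5.85, 5.73 and 5.67 in Wc. The rise of 1.16 (SE 0.12, limma adjusted p = 9.09e-06) was 2.23-fold, and every SH array lay above every Wc array. Of 26 genes on the auxin synthesis list 2 were measured, and the other was YUC6. It read 5.16, 4.35 and 5.26 in SH, against 4.12, 5.04 and 5.36 in Wc, and its arrays overlapped (0.08, SE 0.28, limma adjusted p = 0.967). WAG2, a kinase that acts on auxin transporters and the only measured gene of its list, stood at 0.00.

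Several transcription factors rose. BIM1 (AT5G08130), a bHLH factor that partners a regulator of brassinosteroid responses, read 8.86, 8.87 and 8.25 in SH, against 6.93, 7.13 and 7.00 in Wc, a rise of 1.65 (SE 0.22, limma adjusted p = 0.000185). WRKY22 (AT4G01250), known from immune and dark-induced responses, read 7.27, 6.97 and 6.57 in SH, against 5.45, 5.61 and 5.28 in Wc, a rise of 1.49 (SE 0.17, limma adjusted p = 2.05e-05). In both genes the SH array numbered 3 was the lowest of its group and still above every Wc array. AT3G57800, a bHLH family gene, read 8.66, 8.44 and 8.34 in SH, against 7.48, 7.28 and 7.27 in Wc, a rise of 1.14 (SE 0.13). HAT2 (AT5G47370), a class II homeodomain leucine zipper factor raised by auxin and by shade, read 8.25, 8.18 and 7.69 in SH, against 7.17, 7.09 and 6.91 in Wc, a rise of 0.98 (SE 0.13, limma adjusted p = 0.000193). BZIP61 (AT3G58120) read 8.78, 8.56 and 8.18 in SH, against 7.67, 7.67 and 7.30 in Wc, a rise of 0.96 (SE 0.14). These 5 genes had no overlap between the lights, and no fit that left out 1 array ended their calls.

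AT1G69570, a DOF family factor, read 7.74, 7.32 and 6.92 in SH, against 6.48, 6.16 and 5.61 in Wc, a rise of 1.25 (SE 0.24, limma adjusted p = 0.0079). Its call was lost without SH replicate 1 (1.04, adjusted p = 0.0999) and without Wc replicate 3 (1.01, adjusted p = 0.0653). The limma adjusted p of AT1G69570 with the replicate block was 2.22e-06. BZIP34, a relative of BZIP61, read 6.21, 5.94 and 5.69 in SH, against 5.26, 5.46 and 4.95 in Wc. Its difference of 0.72 (SE 0.18) missed the threshold at a limma adjusted p of 0.0611 and passed it with the replicate block at 0.0152. Of 7 measured genes with BZIP in their name 1 was called, with a median of 0.17. Of 5 measured WRKY genes 1 was called, with a median of -0.14. Over all probe sets 0.806% were called. These groups were drawn by gene name and leave out family members under other names, such as HYH, given below. PHV, the other measured gene of the homeodomain leucine zipper list, stood at 0.38 and BHLH101 at -0.05, and neither passed. AT3G57800 is not on the bHLH list, which was also drawn by name.

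Among genes of light signalling, FHL (AT5G02200), which carries phytochrome A into the nucleus, read 6.83, 6.64 and 5.88 in SH, against 5.23, 5.25 and 5.26 in Wc. The Wc arrays lay within 0.01 (SD) of each other while the SH arrays spread by 0.50 (SD), with the array numbered 3 lowest. The rise was 1.21 (SE 0.27), with a limma adjusted p of 0.0289 and of 0.00118 with the replicate block. Its call was lost in 5 of the 6 leave-one-out fits, all but the one without SH replicate 3, with differences of 1.02 to 1.49. AT3G44450 and AT3G52740, known as BIC2 and BIC1, inhibit cryptochrome blue light receptors. AT3G44450 read 6.02, 5.86 and 5.56 in SH, against 6.70, 6.77 and 6.02 in Wc. Its difference of -0.69 (SE 0.19) was not called (limma adjusted p = 0.122), and was called with the replicate block (adjusted p = 0.00617) and without Wc replicate 3 (-0.92, adjusted p = 0.0142). AT3G52740 stood at -0.45 (SE 0.17, adjusted p = 0.389). HYH, a bZIP factor of light signalling, stood at -0.14 and the clock gene GI at 0.12, and neither passed.

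Of the 8 measured shade markers, of 27 on the list, 4 rose in sav3-2 and 0 fell, against 0.631% and 0.175% of all probe sets. The median difference was 0.74, against -0.008 over all probe sets. The list was chosen with earlier results of these data known. The 4 were IAA29, BIM1, FHL and HAT2, all described above. Of the other markers, AT2G18010, known as SAUR10, read 4.86, 4.79 and 5.09 in SH, against 4.27, 4.59 and 4.42 in Wc. Its arrays did not overlap, but all lay near the lower end of the scale and the difference of 0.49 (SE 0.20) did not pass (limma adjusted p = 0.474). XTH33, a xyloglucan-modifying enzyme, stood at 0.43 (SE 0.19, adjusted p = 0.522). In Col-0 6 of the 8 were higher and 1 lower, with a median of 1.17, and the 2 lists of calls rest on separate arrays.

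**Figure D2:**
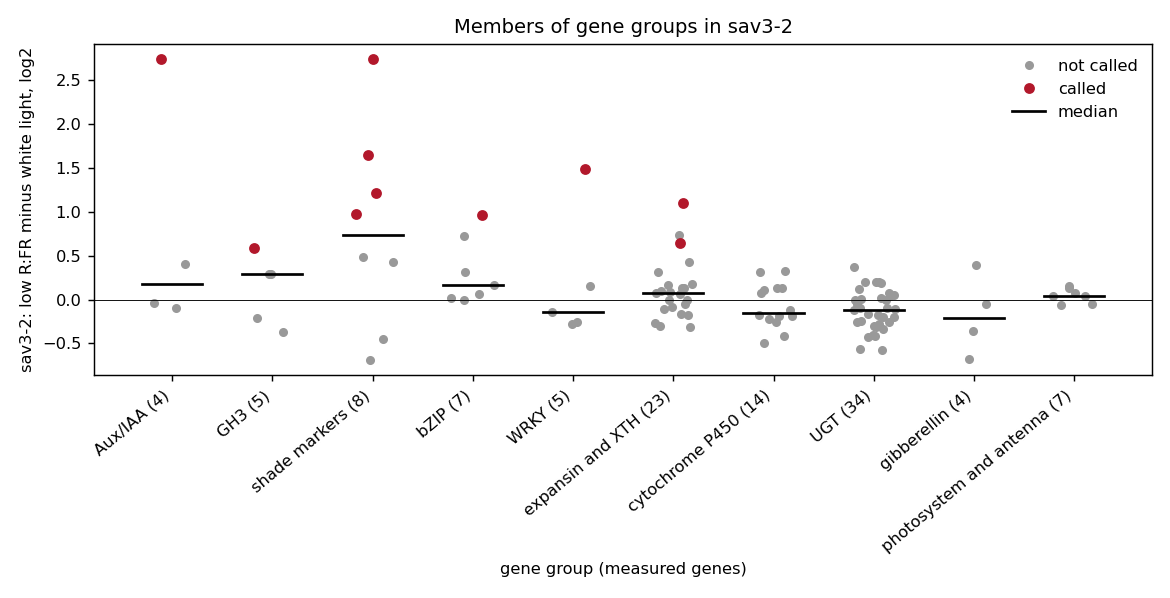
Difference between low R:FR and white light in sav3-2 (log2) for the measured members of the gene groups. Each point is 1 gene and its colour shows whether it was called. Most members lie near 0, and each group with a called gene has 1 to 4 of them.

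Cell wall genes responded in part. AT5G48900, which encodes a pectate lyase-like protein, read 9.52, 9.28 and 9.20 in SH, against 8.13, 8.18 and 8.10 in Wc, a rise of 1.20 (SE 0.15, limma adjusted p = 6.79e-05). AT4G25260, of the pectin methylesterase inhibitor family, read 8.60, 8.62 and 8.66 in SH, against 7.58, 7.34 and 7.64 in Wc, a rise of 1.1 (SE 0.11, limma adjusted p = 3.93e-06). Neither call was lost when 1 array was left out. EXLA1 (AT3G45970), an expansin-like gene, read 7.40, 7.16 and 7.74 in SH, against 6.38, 6.19 and 6.43 in Wc, a rise of 1.1 (SE 0.24, limma adjusted p = 0.023). EXLA2 (AT4G38400) read 6.71, 6.64 and 6.69 in SH, against 5.74, 6.07 and 6.27 in Wc, a rise of 0.65 (SE 0.14, limma adjusted p = 0.0226). Both were lost in 5 of the 6 leave-one-out fits, with differences of 0.95 to 1.24 for EXLA1 and of 0.51 to 0.77 for EXLA2. The exceptions were the fits without SH replicate 2 for EXLA1 and without Wc replicate 3 for EXLA2. Their limma adjusted p with the replicate block was 0.000461 for EXLA1 and 0.00602 for EXLA2. EXPB1, a beta-expansin, stood at 0.73 (SE 0.19, adjusted p = 0.0954) and was called with the replicate block (adjusted p = 0.00189). Of 23 measured expansin and XTH genes 2 rose and 0 fell, against 0.631% and 0.175% of all probe sets, and the median of the group was 0.07.

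Genes outside the lists rose as well. AT5G12050 read 9.89, 10.24 and 10.02 in SH, against 7.88, 7.85 and 6.91 in Wc, a rise of 2.51 (SE 0.36, limma adjusted p = 0.000378), the second of the named genes in size. AT5G02540, which encodes a protein with an NAD(P)-binding fold, read 8.29, 8.38 and 7.95 in SH, against 6.21, 6.01 and 5.92 in Wc, a rise of 2.16 (SE 0.35, limma adjusted p = 0.00148). Both rises were above 4-fold, and the lower spread of AT5G12050 in SH (SD 0.18) than in Wc (SD 0.55) came with a low Wc array numbered 3. AT5G66590, of the CAP and PR-1 family, read 8.95, 8.67 and 7.78 in SH, against 7.36, 7.21 and 6.43 in Wc, a rise of 1.47 (SE 0.30, limma adjusted p = 0.0133). In each light its array numbered 3 was the lowest. The call was lost without SH replicate 1 (1.22, adjusted p = 0.14), SH replicate 2 (1.36, adjusted p = 0.098) or Wc replicate 3 (1.18, adjusted p = 0.099). These fits hold no replicate block. Same-numbered arrays differed by 1.59, 1.46 and 1.35, and the limma adjusted p with the block was 2.22e-07. AT5G02580 read 6.53, 6.49 and 6.11 in SH, against 4.78, 4.93 and 5.04 in Wc, a rise of 1.46 (SE 0.25), and AT5G62280 read 7.79, 7.39 and 7.70 in SH, against 5.90, 6.29 and 6.82 in Wc, a rise of 1.29 (SE 0.21). Neither gene overlapped between the lights.

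AT3G58640, a protein kinase related to the MAPKKK family, had the tightest SH arrays among these genes, with 8.32, 8.29 and 8.33, against 7.30, 6.98 and 6.87 in Wc, and rose by 1.26 (SE 0.14, limma adjusted p = 1.43e-05). AT2G28400, of the senescence regulator family S40, read 6.61, 6.86 and 6.22 in SH, against 5.65, 5.09 and 5.16 in Wc, a rise of 1.26 (SE 0.18). AT4G16770, an oxygenase that uses 2-oxoglutarate, read 7.53, 7.30 and 7.08 in SH, against 5.85, 6.42 and 5.98 in Wc, a rise of 1.22 (SE 0.17). AT4G27280, a calcium-binding EF-hand protein, read 8.58, 8.44 and 8.39 in SH, against 7.07, 7.24 and 7.51 in Wc, a rise of 1.20 (SE 0.17, limma adjusted p = 0.000432). All 4 were called in every fit that left out 1 array.

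The remaining named genes that rose did so by 0.60 to 1.15 and include EXO (AT4G08950), a growth gene raised by brassinosteroids. EXO read 9.02, 9.21 and 9.45 in SH, against 8.30, 8.30 and 8.63 in Wc, a rise of 0.81 (SE 0.16, limma adjusted p = 0.0106). It was lost in 4 of the 6 leave-one-out fits, with differences of 0.70 to 0.92, and had a limma adjusted p of 1.18e-05 with the replicate block. RALFL33, which encodes a small secreted signal peptide, read 10.20, 10.47 and 10.22 in SH, against 9.17, 9.68 and 9.37 in Wc, a rise of 0.89 (SE 0.14, limma adjusted p = 0.00135). GAT1_2.1, a glutamine amidotransferase-like gene, read 6.37, 5.98 and 6.72 in SH, against 5.49, 5.20 and 5.10 in Wc, a rise of 1.09 (SE 0.22, limma adjusted p = 0.012), and was lost in 4 of the 6 leave-one-out fits, with differences of 0.90 to 1.28. AT1G19320, of the thaumatin family, read 5.44, 5.20 and 5.67 in SH, against 4.73, 4.63 and 4.23 in Wc, near the lower end of the scale. Its rise of 0.90 was called at a limma adjusted p of 0.0496 and lost in all 6 leave-one-out fits, where it lay between 0.75 and 1.02. AT1G21830 has 2 kept probe sets. One was called at 0.66 (SE 0.15, adjusted p = 0.0341) and the other, at 0.95 (SE 0.23), was not (adjusted p = 0.0546), and passed with the replicate block (adjusted p = 0.0155).

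Fewer genes fell, and by less. Of the 12 named genes, AT3G22970 and AT1G51805 had the largest falls. AT3G22970 read 6.98, 7.08 and 6.78 in SH, against 7.95, 7.64 and 7.61 in Wc, and fell by 0.78 (SE 0.14, limma adjusted p = 0.00475), to 0.58 of the white light value. AT1G51805, a leucine-rich repeat receptor kinase, read 7.27, 7.65 and 7.46 in SH, against 8.27, 8.38 and 8.06 in Wc, and fell by 0.78 (SE 0.14, limma adjusted p = 0.00484). AT3G22970 was the only 1 of the 12 that was called in every fit that left out 1 array, and AT1G51805 was lost only without SH replicate 1 (-0.68, adjusted p = 0.0601).

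The other 10 fell by 0.50 to 0.68 and were each lost in 3 to 6 of the leave-one-out fits. They include the protein kinase genes AT1G77280 (-0.61), AT5G50860 (-0.51) and AT1G54820 (-0.50), the calcium-binding AT5G54130 (-0.64), AT5G03380 (-0.65), which encodes a protein with a heavy-metal-associated domain, and AT5G59540 (-0.61), an oxygenase gene. A second probe set of AT5G54130 stood at -0.61 (SE 0.20) and was not called (limma adjusted p = 0.271), but was with the replicate block (adjusted p = 0.0266). AT2G19650 (-0.68), AT1G74940 (-0.61), AT1G15260 (-0.51) and AT3G13120 (-0.52) complete the 12. AT3G13120, of the ribosomal protein S10 family, read 10.58, 10.47 and 11.05 in SH, against 11.24, 11.19 and 11.22 in Wc. Its SH array numbered 3 lay well above the other SH arrays and still below every Wc array. Without normalization between arrays none of the 12 falls was called, and 30 of the 47 named rises were.

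**Figure D3:**
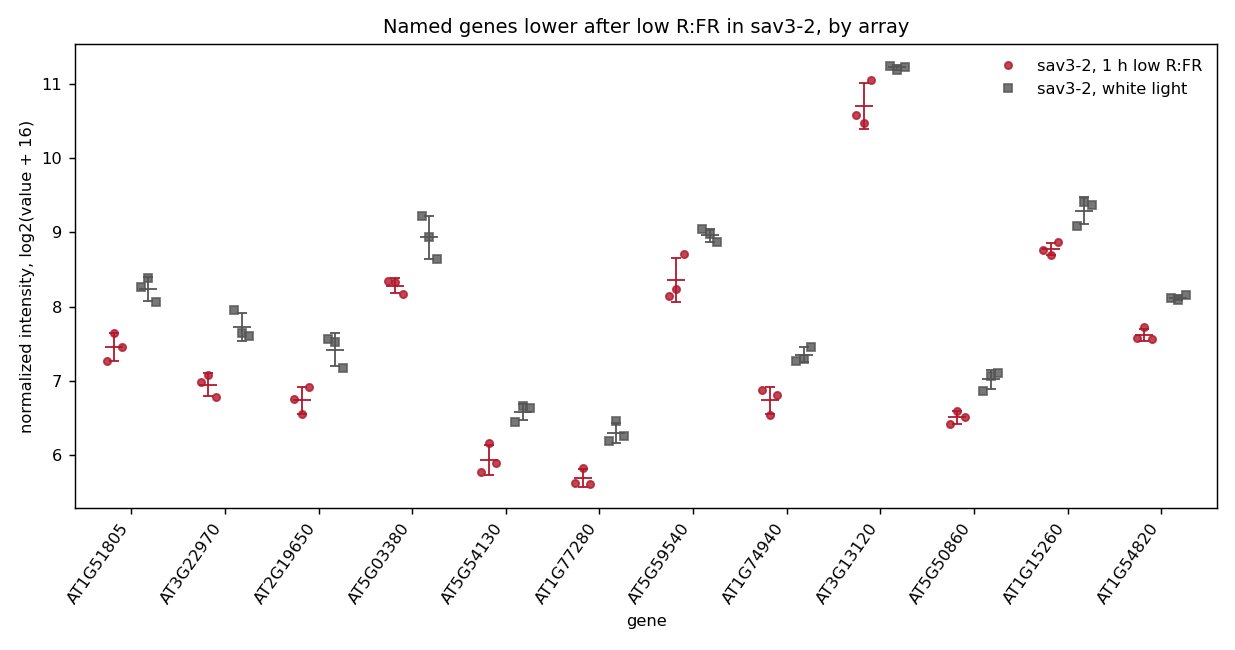
Normalized intensity on the log2(value + 16) scale of the 12 named genes called lower in sav3-2, in the 3 low R:FR arrays and the 3 white light arrays. Points are arrays and lines are group means. The differences lie between -0.50 and -0.78, and within each gene the arrays of the 2 lights do not overlap.

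Other hormone, pigment and metabolic groups had no called member in sav3-2 among their measured genes. Measured were 4 of 18 gibberellin, 2 of 17 cytokinin, 1 of 19 ethylene and 1 of 13 flavonoid genes, so most genes of these lists were not examined. The 4 measured gibberellin genes had a median of -0.20, with the receptor genes GID1C at -0.68 (SE 0.22, limma adjusted p = 0.287), GID1A at 0.39 and GID1B at -0.05. The cytokinin response regulators RR16 and ARR15 stood at 0.04 and 0.05, EIN3 of ethylene signalling at 0.23, DFR of flavonoid synthesis at -0.16, and the AP2 family factor TINY2 at -0.66. The 7 photosystem and antenna genes stood between -0.06 and 0.15, with a median of 0.04. The 14 cytochrome P450 and 34 UGT genes had medians of -0.15 and -0.12, and 0 of either was called. UGT78D2, a glucosyltransferase of flavonoid synthesis, stood at -0.56 (SE 0.14, adjusted p = 0.0727) and was called lower with the replicate block (adjusted p = 0.0241). None of the 6 genes on the list of auxin receptors and co-factors was measured. The ARF, SAUR, BBX and MYB lists were drawn by gene name and matched no name used here. These families were therefore not examined as groups, and members under locus names may be among the kept probe sets. SAUR10 counts among the shade markers under its locus name.

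The responses of the other genotypes rest on separate arrays, although 1 fit supplies the spread for every genotype. Low R:FR changed 316 probe sets in sav1-1, or 1.85%, with 236 higher (1.38%) and 80 lower (0.467%). In Col-0 it changed 191, or 1.12%, with 161 higher (0.94%) and 30 lower (0.175%). Of the 108 probe sets higher in sav3-2, 93 were also higher in sav1-1, or 86.1% of the sav3-2 list and 39.4% of the sav1-1 list. In Col-0 82 of the 108 were also higher, or 75.9% of the sav3-2 list and 50.9% of the Col-0 list. Of the 30 lower in sav3-2, 17 were lower in sav1-1 (56.7% and 21.2% of the lists) and 10 in Col-0 (33.3% of either list). No probe set was called in opposite directions. Over the 108, which were chosen in sav3-2, the median difference was 1.00 in sav3-2, 1.15 in sav1-1 and 1.00 in Col-0, and 107 were above 0 in sav1-1 and 106 in Col-0. Over the 30 it was -0.62 in sav3-2, -0.58 in sav1-1 and -0.42 in Col-0.

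**Figure D4:**
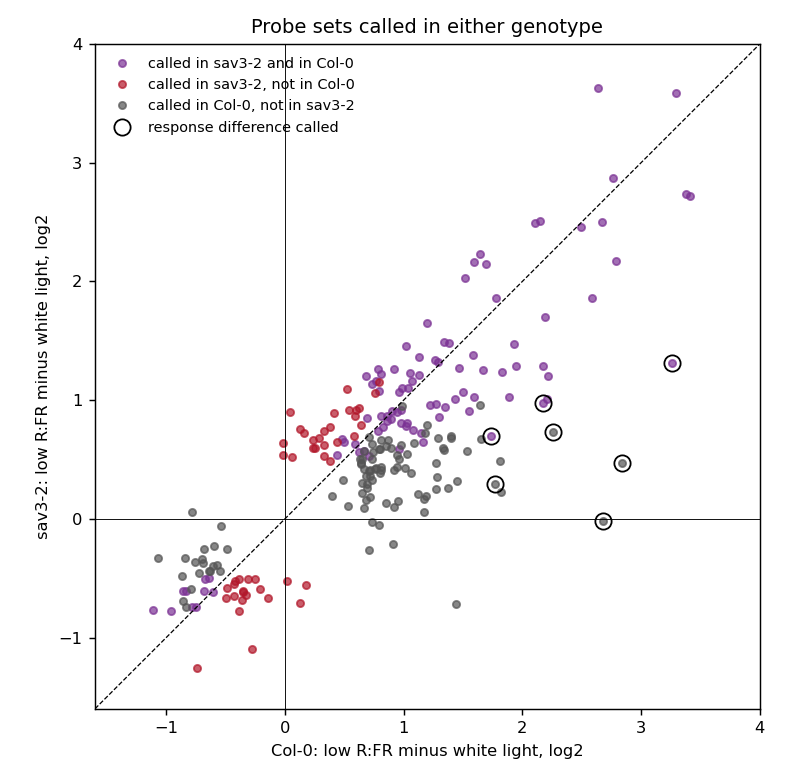
Difference between low R:FR and white light (log2) in sav3-2 against that in Col-0, for probe sets called in either genotype. Each point is 1 probe set, coloured by the genotypes in which it was called, and the diagonal marks equal differences. Most points share their direction, and the 7 probe sets with a called response difference, ringed in black, lie below the diagonal.

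By gene, of the 47 that rose in sav3-2, 40 also rose in sav1-1 and 36 in Col-0. IAA29 rose by 2.74 in sav3-2, by 3.59 in sav1-1 and by 3.38 in Col-0. YUC2 rose by 1.16 in sav3-2, by 1.04 in sav1-1 and by 0.77 in Col-0, and its sav3-2 SH arrays, at 6.80 to 7.04, lay above the Col-0 SH arrays, at 6.31 to 6.55. The response difference for YUC2 was 0.39 (SE 0.17), at an unadjusted p of 0.0359 and a limma adjusted p that rounds to 1. BIM1 rose by 1.65 in sav3-2, by 1.46 in sav1-1 and by 1.20 in Col-0, and WRKY22 by 1.49, 1.45 and 1.34 in the same order. In neither gene did the response difference pass.

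Although IAA29 rose in sav3-2, its mean level was below that of the wild type in both lights. The sav3-2 SH arrays averaged 8.21 ± 0.53 and the Col-0 SH arrays 10 ± 0.20, and the sav3-2 Wc arrays averaged 5.47 ± 0.10 and the Col-0 Wc arrays 6.62 ± 1.13 (SD, n = 3). The SH arrays of the 2 genotypes did not overlap and the Wc arrays did, where Col-0 read 7.70, 6.71 and 5.46. HAT2 averaged 8.04 ± 0.30 in sav3-2 SH and 10.20 ± 0.10 in Col-0 SH, so that the mean of sav3-2 after low R:FR was close to that of Col-0 in white light (8.03 ± 0.14). These levels are given as a description and were not tested between genotypes here.

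In 46 probe sets the response was called in sav3-2 and not in Col-0, 26 higher and 20 lower. None of the 46 passed the test of the response difference, where the smallest limma adjusted p was 0.653. In that test 14 of the 46 had an unadjusted p under 0.05, against 682 of all 17125 probe sets. The 46 were chosen by their calls in the same 2 responses, which by itself favours small unadjusted p and differences of larger size in sav3-2. Of the 26, 24 were above 0 in Col-0 too, with a median of 0.73 in sav3-2 and 0.35 in Col-0. Of the 20, 17 were below 0 in Col-0, with a median of -0.61 in sav3-2 and -0.35 in Col-0. The named genes called in sav3-2 and in neither other genotype were GAT1_2.1, RALFL33, AT3G13980, AT5G67020, AT5G03230, AT4G22190 and AT3G15760, which rose, and AT3G22970, AT5G54130, AT3G13120 and AT5G50860, which fell. RALFL33 stood at 0.89 in sav3-2, 0.52 in sav1-1 and 0.41 in Col-0. AT3G13120 stood at -0.52 in sav3-2, 0.05 in sav1-1 and 0.02 in Col-0, and its response difference to Col-0 of -0.54 (SE 0.15, unadjusted p = 0.00207) did not pass after adjustment.

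The test of the response difference itself called 7 probe sets between sav3-2 and Col-0 (0.0409% of those tested), all with the smaller value in sav3-2. Of the 17125 tested, 682 had an unadjusted p under 0.05, a smaller share than that threshold gives on average when no response differs. With the replicate block, which was fitted over all 18 arrays, the count was 10, with 1 higher and 9 lower in sav3-2. In Col-0 the deviations from the group mean correlated at 0.0988 between SH array 1 and Wc array 2, and at 0.0714 between the arrays numbered 2. Between sav3-2 and sav1-1 the test called 7 as well (0.0409%), again all with the smaller value in sav3-2. An unadjusted p under 0.05 was found for 533, again a smaller share than the threshold gives by itself. With the replicate block the second count was 11. The 2 contrasts share the sav3-2 arrays, so their values stand side by side and one is no check of the other. In each, 3 of the 7 name 1 gene.

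GH3.3, which was not called in sav3-2, had the largest difference among the named genes called in each contrast. The GH3.3 arrays of sav1-1 read 9.71, 9.38 and 9.60 in SH, against 7.27, 7.04 and 6.82 in Wc, and those of Col-0 read 8.59, 8.36 and 8.30 in SH, against 6.75, 6.61 and 6.58 in Wc. The difference was 0.29 in sav3-2, 2.52 in sav1-1 and 1.77 in Col-0. The response in sav3-2 minus that in sav1-1 was -2.23 (SE 0.20, limma adjusted p = 4.63e-06), and minus that in Col-0 -1.48 (SE 0.20, limma adjusted p = 0.00147). All 3 Col-0 SH arrays lay above all 3 sav3-2 SH arrays.

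HAT2 rose in each genotype and by less in sav3-2, where its arrays are given above. In sav1-1 it read 10.07, 10.07 and 9.83 in SH, against 7.60, 7.58 and 7.79 in Wc, and in Col-0 10.31, 10.10 and 10.20 in SH, against 8.18, 7.90 and 8.01 in Wc. The response in sav3-2 minus that in sav1-1 was -1.35 (SE 0.19, limma adjusted p = 0.00121), and minus that in Col-0 -1.19 (SE 0.19, limma adjusted p = 0.0102). The call against Col-0 was lost without Col-0 Wc replicate 2 (-1.12, adjusted p = 0.0602). Without normalization between arrays both were lost, and with a pseudocount of 1 the call against Col-0 was lost.

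AT3G50340 and EXLA2 were each called in 1 of the contrasts. AT3G50340 read 6.79, 6.82 and 6.55 in sav3-2 SH, against 5.89, 6.05 and 6.14 in sav3-2 Wc, a rise of 0.70 (SE 0.13), and 8.22, 8.0 and 8.23 in Col-0 SH, against 6.59, 6.22 and 6.43 in Col-0 Wc, a rise of 1.74 (SE 0.13). The response difference of -1.04 (SE 0.18, limma adjusted p = 0.0234) was lost in 8 of 12 such fits over the arrays of both genotypes, with values of -1.13 to -0.94. Against sav1-1 it was -0.80 (adjusted p = 0.28). The response of EXLA2 in sav3-2 minus that in sav1-1, where it rose by 1.83, was -1.18 (SE 0.20, limma adjusted p = 0.0149). It was lost in 6 of 12 such fits, with values of -1.33 to -1.06, and against Col-0 it was -0.51 (unadjusted p = 0.0174) and did not pass.

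**Figure D5:**
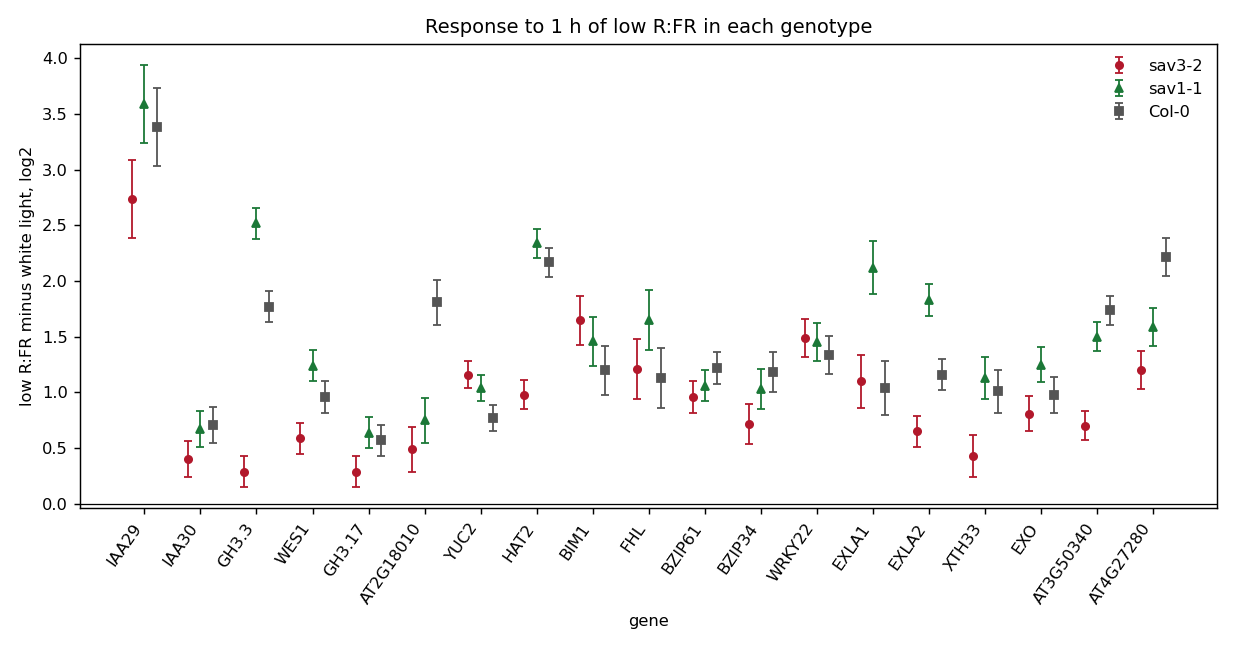
Difference between low R:FR and white light (log2) in sav3-2, sav1-1 and Col-0 for selected named genes. Points are fitted differences from 3 arrays per light, and bars are limma standard errors, which rest on 1 spread per gene over all 18 arrays. IAA29, BIM1, WRKY22 and YUC2 rise in each genotype, while GH3.3 stands at 0.29 in sav3-2 against 2.52 in sav1-1 and 1.77 in Col-0.

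Of the 161 raised in Col-0, 79 were not called in sav3-2, and 30 of these name 1 gene. The median difference over the 79 was 0.42 in sav3-2 and 0.89 in Col-0, and 73 of the 79 were above 0 in sav3-2. The 79 were chosen as called in Col-0 and not in sav3-2, and that choice by itself favours a smaller median in sav3-2. The response difference called 4 of the 79. AT3G47310, named after its values were seen, had the largest difference among the 30 and missed the threshold (-0.72 in sav3-2, 1.44 in Col-0, response difference -2.16, SE 0.41, limma adjusted p = 0.0588). Of the 79, 23 were called in sav3-2 with the replicate block. Over all 161, which were chosen in Col-0, the median in sav3-2 was 0.68, with quartiles of 0.43 and 1.16. Of the 10 named genes with the largest rise in Col-0, 8 were called in sav3-2 as well. These were IAA29, AT4G27280 (1.20 in sav3-2 and 2.22 in Col-0), HAT2, AT5G62280 (1.29 in sav3-2 and 2.17 in Col-0), AT5G12050 (2.51 in sav3-2 and 2.15 in Col-0), AT5G66590 (1.47 in sav3-2 and 1.93 in Col-0), AT3G50340 and AT1G69570 (1.25 in sav3-2 and 1.67 in Col-0). The other 2 were GH3.3 and AT2G18010. AT2G18010 stood at 0.49 in sav3-2 and 1.81 in Col-0, with a response difference of -1.32 (SE 0.28) that did not pass (limma adjusted p = 0.169).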

How the data were processed

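The authors deposited 1 linear intensity per probe set and array for whole-seedling RNA, and GCRMA is named per the submitters' processing notes. The sources used here do not say how. All 18 arrays were quantile normalized, 64 control probe sets were left out, and the deposited intensity values were turned into log2(value + 16), so fold changes of dim genes are understated. Of 22746 probe sets, 17125 with log2 intensity above 4 on at least 3 arrays were kept. limma 3.58.1 (R 4.3.3; lmFit, eBayes with trend) fitted 1 mean per group over all arrays, with two-sided tests. The number of arrays limits the precision. The test was run on simulated data first.

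Names came from the platform's annotation: 13513 probe sets name 1 gene (13508 matched a TAIR10.1 gene table, used for names only), 503 name several and 8730 are unnamed here. Coordinates are left out for want of a named build.

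The members, gene lists and naming rule were chosen with earlier results of these data known. Named in full are the 15 called genes per direction with the largest non-overlapping differences, then list members, genes of called response differences and the 10 largest Col-0 rises. Other called genes may be named.

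Replicate numbers come from the sample titles and are not said to mark a shared day. They entered only as the replicate block of an alternative fit. The main calls and the fits that left out 1 array did not use them for pairing. Deviations of same-numbered sav3-2 arrays correlated at 0.105, 0.126 and 0.248. In sav1-1 the values were 0.187, 0.108 and 0.272, and in Col-0 0.171, 0.0714 and 0.29. Alternatives were no normalization, median scaling, pseudocounts of 1 and 64, other filters, the replicate block, array weights, the sav3-2 arrays alone, a threshold of 0.01, leaving out the arrays numbered 3, and leaving out each array.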

Additional observations from a re-analysis of the deposited data

Results flagged for a closer look

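Differences between genotypes in the response to low R:FR were called by the interaction test in limma for the following probe sets. Each value is the response in sav3-2 minus the response in the other genotype on the log2 scale. Against sav1-1, the value was -2.23 for GH3.3, -1.35 for HAT2 and -1.18 for EXLA2. Against Col-0, it was -1.48 for GH3.3, -1.19 for HAT2 and -1.04 for AT3G50340.

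The other called probe sets do not name 1 gene here. Probe set 261766_at read 4.46, 4.87 and 4.21 in sav3-2 SH, against 4.1, 4.80 and 4.70 in sav3-2 Wc, so that its arrays overlapped near the lower end of the scale. Its value was -2.43 against sav1-1 and -2.70 against Col-0. Probe set 260152_at read 5.30, 5.39 and 5.0 in sav3-2 SH, against 5.11, 4.97 and 4.20 in sav3-2 Wc, and stood at -2.80 against sav1-1 and -2.37 against Col-0. Probe set 258399_at rose by 1.31 in sav3-2, by 3.76 in sav1-1 and by 3.26 in Col-0, and its values were -2.45 against sav1-1 and -1.95 against Col-0. Probe set 248282_at was called against sav1-1 (-2.02) and 259332_at against Col-0 (-1.53). The 2 contrasts share the sav3-2 arrays.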

How the results depend on the processing

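The 138 calls in sav3-2 became 79 without normalization between arrays (78 higher and 1 lower), where the median over all tested was 0.11, against -0.01 after quantile normalization. They became 277 with the replicate block, 75 at an adjusted p under 0.01 and 259 without the arrays numbered 3 (161 higher and 98 lower, 112 of the 138 among them). Leaving out 1 array gave 67 to 135. The 7 calls between sav3-2 and Col-0 became 3 without normalization, 2 with a pseudocount of 1, 12 with one of 64 and 12 with array weights, and 4 to 10 without 1 array, with 4 without Col-0 Wc replicate 2. They became 10 with the replicate block, 1 higher and 9 lower, with 248282_at among them (adjusted p = 0.0319), and with a pseudocount of 64 and without Col-0 SH replicate 1 there was also 1 higher. GH3.3, HAT2 and AT3G50340 each had an adjusted p of 0.855 without normalization. With a pseudocount of 1 HAT2 and AT3G50340 were lost and GH3.3 was kept. The 7 calls between sav3-2 and sav1-1 became 12 with a pseudocount of 64, 11 with the replicate block and 12 with array weights, and 6 to 8 without 1 array. Without normalization HAT2 (-1.30) and EXLA2 (-1.14) were lost there (both adjusted p round to 1). The cause of these changes was not tested. Median scaling, other filters and the sav3-2 arrays alone kept the total in sav3-2 within 1.5 times, but the 30 lower calls became 12 with the sav3-2 arrays alone. They became 8, 10, 16 and 10 without SH replicate 1, SH replicate 2, Wc replicate 1 and Wc replicate 2.

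The replicate block ended no call in sav3-2 and added those counted above, of which AT3G44450, BZIP34, EXPB1, UGT78D2 and the second probe sets of AT1G21830 and AT5G54130 are named. Of the 59 named genes, 22 were called in every setting that kept them, 26 in all 6 fits that left out 1 array, and 0 changed direction. The fits that left out 1 array held no replicate block. Among genes that were not called, YUC6 turned to -0.13 with array weights, IAA18 to 0.01 with array weights and 0.12 without normalization, and GID1B to 0.04 without normalization. Leaving out 1 array gave -0.28 to 0.37 for YUC6, -0.12 to 0.03 for IAA18, -0.16 to 0.05 for GID1B and -0.22 to 0.02 for IAA34, so none of the 4 has a settled direction. The small number of arrays limits what can be called, and the response of the unnamed probe sets was not assigned to genes.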
